A study of Mus musculus with 24 samples.

Results

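The 9 genes described here encode parts of the ribbon synapse, the contact through which a hair cell (HC) of the organ of Corti (OC) passes sound information to the auditory nerve. They were chosen by name, as the rows of the counts table whose Entrez identifiers belong to Otof, Slc17a8, Cacna1d, Cacnb2, Cabp2, Ctbp2, Bsn, Pclo and Rims2, which are 9 of the 24454 genes in the table. RNA was sequenced from OC explants of 5-day-old C57BL/6N mice of both sexes, kept for 24 h in culture and then treated for 6 or 24 h without drug (CTRL), with 50 µM of the ototoxic aminoglycoside gentamicin (GM), with 10 µM of the PPARγ agonist pioglitazone (PIO), or with both (PIO + GM). Each of the 8 groups held 3 libraries, each made from 6 pooled OCs, so that 24 libraries were compared. The labels do not say whether the 3 libraries of a group came from separate litters or culture days, and p-values then measure only the spread between these libraries. All explants, controls included, had been dissected before hearing onset and cultured with serum, and no group was taken straight from the animal.

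At a ribbon synapse, an electron-dense ribbon holds glutamate-filled vesicles close to a cluster of voltage-gated calcium channels. Calcium entering through these channels makes the vesicles fuse, and the release is graded and can be sustained for long periods. Inner HCs make most of these synapses, each with a single dendrite of a spiral ganglion neuron. Bsn, Pclo and Rims2 also serve conventional synapses, and Ctbp2 also encodes a transcriptional corepressor made in most cell types.

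The 24 libraries held between 7211357 and 15548856 reads counted in genes, with a median of 12538495, and 3 reads corresponded to 0.193 to 0.416 counts per 1000000 counted reads (CPM). All 9 genes passed the filter on low counts and were among the 16317 genes tested. All 22 genes of a list of HC markers and all 16 of a list of spiral ganglion neuron markers were also tested, and none of them had a median of 0 reads, so RNA of these genes was counted in the explants. In these bulk samples fewer cells of a type and less RNA per cell cannot be told apart. No gene of the lists of supporting cell, glia, macrophage and mesenchyme markers had a median of 0 reads either, which does not measure how many such cells there were. The shallowest library was number 3 of PIO + GM at 6 h.

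Pioglitazone acts through PPARγ, a nuclear receptor that binds DNA with a partner at the direct repeat AGGTCANAGGTCA. The promoters of the 3 genes that were lower with pioglitazone (below) are therefore shown, as RefSeq sequences in build GRCm38.p6, each 250 bases long and ending at the base before an annotated start of transcription, 5′ to 3′ on the strand of the gene, which is the minus strand for all of them. Ctbp2 is shown at the 2 starts the RefSeq table gave. The first, at chr7:133081861-133082110, lies farther upstream than the second, at chr7:133015248-133015497, and both lie inside the annotated span of the gene (132986998 to 133124009). The second ends at the first base (position 133015248) of a GENCODE transcript that codes for 988 residues. A transcript that starts at position 133123367, outside both windows, codes for 445 residues. RIBEYE, the main building block of the ribbon, is the longer product. Capitals mark TATAAA in the Ctbp2 and Cacna1d sequences and CACCTG in the Slc17a8 sequence, on either strand.
Slc17a8, chr10:89621250-89621499: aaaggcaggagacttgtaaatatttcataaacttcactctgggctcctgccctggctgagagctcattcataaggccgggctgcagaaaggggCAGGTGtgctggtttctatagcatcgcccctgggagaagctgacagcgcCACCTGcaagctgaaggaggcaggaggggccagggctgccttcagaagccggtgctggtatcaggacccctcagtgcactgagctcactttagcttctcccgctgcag
Ctbp2, first start, chr7:133081861-133082110: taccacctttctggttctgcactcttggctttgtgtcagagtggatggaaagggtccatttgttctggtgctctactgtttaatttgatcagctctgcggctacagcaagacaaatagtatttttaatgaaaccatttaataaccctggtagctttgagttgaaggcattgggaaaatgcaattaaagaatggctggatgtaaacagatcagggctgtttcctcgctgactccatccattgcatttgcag
Ctbp2, second start, chr7:133015248-133015497: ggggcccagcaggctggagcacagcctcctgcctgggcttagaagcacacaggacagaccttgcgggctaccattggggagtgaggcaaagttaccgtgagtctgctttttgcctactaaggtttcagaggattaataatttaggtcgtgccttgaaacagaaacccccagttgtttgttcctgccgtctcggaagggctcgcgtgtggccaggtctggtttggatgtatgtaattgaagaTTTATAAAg
Cacna1d, chr14:30491157-30491406: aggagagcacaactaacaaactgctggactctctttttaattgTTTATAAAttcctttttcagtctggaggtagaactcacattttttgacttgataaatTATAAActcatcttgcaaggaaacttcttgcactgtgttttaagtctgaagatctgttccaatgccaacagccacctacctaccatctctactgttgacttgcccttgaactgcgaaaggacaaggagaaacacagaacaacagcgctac
The RefSeq table gave 12 such windows for 7 of the 9 genes. A second start of Slc17a8 (chr10:89599816-89600065) and of Cacna1d (chr14:30353487-30353736) is not printed, though both were searched. The half-site AGGTCA, searched on both strands, was in 0 of the 12 windows and in 14% of all 32851 promoters of the same length. The full repeat AGGTCANAGGTCA was in 0 of the 12 and in 0.0335% of all. TATAAA was in 2 of the 12 windows and 12.4% of all, and began 7 bases before the second start of Ctbp2. CACCTG was in 3 of the 12 windows, those of Slc17a8, Pclo and Cabp2, and in 17.2% of all promoters. A match to letters in a window is a description of the sequence, and a missing match says nothing about sites elsewhere.

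Levels between genes were compared per length of counted transcript, as reads per 1000 bases and 1000000 counted reads (RPKM), over the 24 libraries. Otof, which encodes otoferlin, the large calcium-binding membrane protein needed for vesicle fusion and resupply in HCs, had the highest median, at 15.4 RPKM (range 7.66 to 28.5). Ctbp2 followed at 13.1 RPKM (9.44 to 15.8), and Cacna1d at 7.99 RPKM (4.95 to 14.0). Rims2 (5.66 RPKM, 3.49 to 9.81) and Slc17a8 (5.00 RPKM, 1.76 to 24.6) came next. The lowest medians were those of Cacnb2 at 2.91 RPKM, Cabp2 at 2.17 RPKM, Pclo at 2.01 RPKM and Bsn at 0.561 RPKM. Each of these ranges overlapped that of its neighbour in the order. The Slc17a8 range was the widest, since its CPM ran from 8.29 to 116, while that of Ctbp2 ran from 45.1 to 75.2. Cabp2 rested on the fewest reads, 11 to 70 in a library, and its values are the least precise, whereas Otof was counted with 720 to 2561 reads. Between 0 and 3.52% of the 76-base windows of a member's transcripts occurred in another gene as well, with Pclo at the top of that range. Exons of other genes covered 7.32% of the exon bases of Cacnb2, 5.05% of those of Ctbp2, 4.67% of those of Cacna1d and 4.12% of those of Pclo. The overlap of Ctbp2 was with Fgfr2 on the same strand, where counting by strand would not separate the reads. The sources used here do not say whether counting used the strand, and reads from all such overlaps were not told apart.

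**Figure D1:**
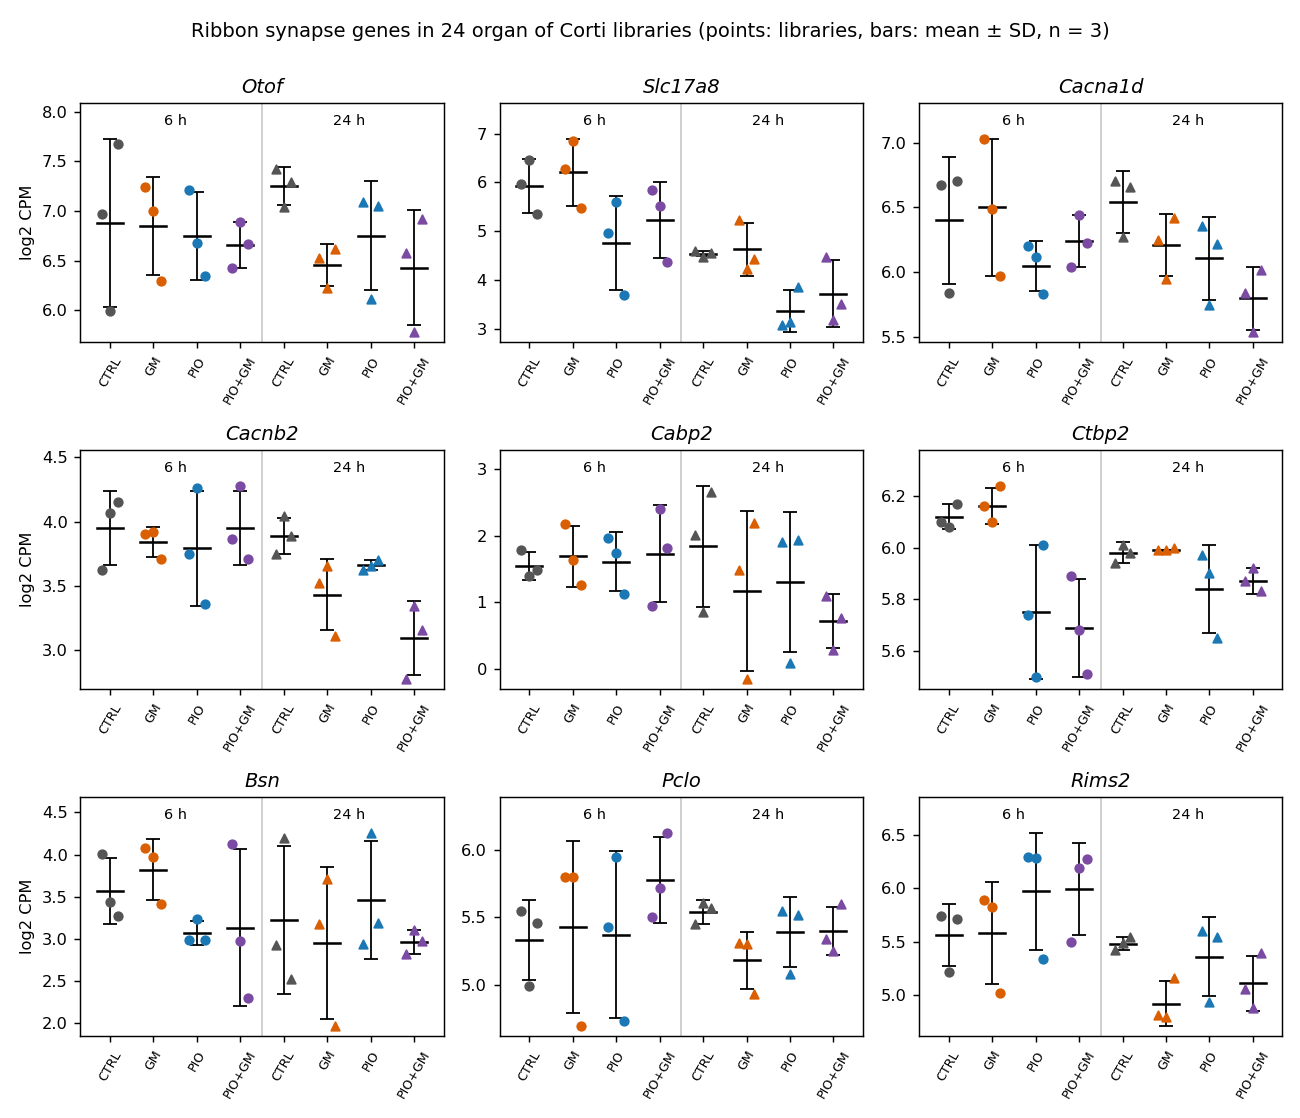
Level of the 9 ribbon synapse genes in the 24 libraries, on a log2 CPM scale whose range differs between panels, with 1 point for each library (circles 6 h, triangles 24 h) and bars for the mean ± SD of the 3 libraries of a group. Slc17a8 was lower at 24 h than at 6 h and lower with pioglitazone, and the 4 groups with pioglitazone had the 4 lowest mean levels of Ctbp2.

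Slc17a8 encodes VGLUT3, the transporter that loads glutamate into the synaptic vesicles of HCs (Entrez 216227, GRCm38.p6 chromosome 10, 89574020 to 89621249, minus strand). It varied most of the 9 genes, with treatment time and with pioglitazone. At 6 h its level in the 3 libraries was 62.0, 87.9 and 41.0 CPM in CTRL and 77.6, 116 and 44.6 CPM in GM. It was 31.0, 48.4 and 12.9 CPM in PIO and 57.6, 45.5 and 20.4 CPM in PIO + GM. At 6 h the libraries thus spread widely within each group, and library 3 was the lowest in every group. At 24 h the level was 23.9, 22.2 and 23.2 CPM in CTRL, 37.7, 18.6 and 21.4 CPM in GM, 8.29, 8.65 and 14.3 CPM in PIO, and 22.1, 8.86 and 11.1 CPM in PIO + GM. No CTRL or GM library at 24 h reached the lowest library of its 6 h group, while the PIO and the PIO + GM groups overlapped between times. Of all tested genes, 22.3% were lower at 24 h without overlap in CTRL and 22.2% in GM. The order of the group means ± SD (n = 3) was GM at 6 h (79.4 ± 35.7 CPM), CTRL at 6 h (63.6 ± 23.4), PIO + GM at 6 h (41.2 ± 19), PIO at 6 h (30.7 ± 17.8), GM at 24 h (25.9 ± 10.3), CTRL at 24 h (23.1 ± 0.86), PIO + GM at 24 h (14 ± 7.08) and PIO at 24 h (10.4 ± 3.37). Neighbours in this order overlapped, except CTRL and PIO + GM at 24 h, which lay 22.2 to 23.9 and 8.86 to 22.1 CPM.

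The comparison of 24 h with 6 h asked how the level moved with time in culture, averaged over the 4 treatments. Differences were tested in 1 edgeR fit of all 24 libraries, and a gene was called where its p, adjusted over the 16317 genes by the Benjamini-Hochberg method, was under 0.05. Slc17a8, Rims2 and Cacnb2 fell, which was 3 of the 9 genes, where 62.6% of all tested genes passed the threshold in either direction and 30.7% were lower. Slc17a8 was 2.92-fold lower at 24 h, a log2 fold change of -1.55 ± 0.24 (SE, 95% CI -2.04 to -1.05, adjusted p = 1.46e-05 by edgeR). All 9 estimates were below 0, with a median of -0.20 against 0.02 over all tested genes. The fall of Slc17a8 was called in each treatment on its own, at -1.46 in CTRL (SE 0.47, adjusted p = 0.026), -1.62 in GM (SE 0.47, adjusted p = 0.0172), -1.56 in PIO (SE 0.48, adjusted p = 0.0216) and -1.55 in PIO + GM (SE 0.48, adjusted p = 0.0172). Calls were 28% of all genes in CTRL, 24.2% in GM, 29% in PIO and 34.6% in PIO + GM. The difference between the GM and the CTRL fall was -0.16 (95% CI -1.52 to 1.21), a wide interval. Each of these calls within a treatment rested on single libraries. In CTRL it was lost without CTRL library 2 at 6 h (log2 fold change -1.16, adjusted p = 0.13) or without CTRL library 1, 2 or 3 at 24 h (0.0658, 0.0716 and 0.0696). Over all alternatives, those losses included, the adjusted p in CTRL was 0.00662 to 0.13, and without leaving out a library it was 0.00662 to 0.0293. In GM it was lost without GM library 2 at 6 h (-1.24, 0.108) or library 2 or 3 at 24 h (0.074 and 0.0649), in a range of 0.00302 to 0.108. In PIO it was lost without PIO library 2 at 6 h (-1.07, 0.153) or library 1 or 2 at 24 h (0.0807 and 0.0799), in a range of 0.00414 to 0.153. In PIO + GM it was lost without library 1 or 2 at 6 h (0.0676 and 0.0551) or library 2 or 3 at 24 h (0.078 and 0.0655), in a range of 0.0033 to 0.078. The average over treatments kept its call without any 1 of the 24 libraries, with log2 fold changes of -1.67 to -1.42.

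Rims2 encodes RIM2, a scaffold of the active zone that promotes the clustering of calcium channels (Entrez 116838, chromosome 15, 39198286 to 39684372, plus strand). At 6 h it stood at 53.4, 37.1 and 52.2 CPM in CTRL, 59.1, 56.4 and 32.3 CPM in GM, 77.9, 77.7 and 40.3 CPM in PIO and 45.0, 72.6 and 77.3 CPM in PIO + GM. At 24 h it was 42.5, 44.9 and 46.3 CPM in CTRL, 27.9, 27.7 and 35.6 CPM in GM, 48.3, 30.5 and 46.4 CPM in PIO and 33.2, 29.2 and 41.7 CPM in PIO + GM. The CTRL libraries at 24 h lay within the range of those at 6 h, with means of 44.6 CPM at 24 h and 47.6 CPM at 6 h. The 3 groups with a drug also had lower means at 24 h. Rims2 fell by 0.58 on the log2 scale over the 4 treatments (SE 0.13, 95% CI -0.86 to -0.30, adjusted p = 0.000913), which is 1.5-fold lower. By treatment the log2 fold change was -0.09 in CTRL, -0.69 in GM (adjusted p = 0.0665), -0.65 in PIO (adjusted p = 0.0757) and -0.90 in PIO + GM (SE 0.27, adjusted p = 0.0149), and only the last passed the threshold. The PIO + GM call was lost without library 2 or 3 at 6 h (0.0639 and 0.0565) or without library 1 or 2 at 24 h (0.0503 and 0.0655), in a range of 0.00378 to 0.0655 over the alternatives. A call appeared in GM without GM library 3 at 6 h (-0.92, 0.02; range 0.02 to 0.218) and in PIO without PIO library 3 at 6 h (-0.89, 0.0126; range 0.0126 to 0.276).

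Cacnb2 encodes the β2 subunit that helps to bring the HC calcium channel to the membrane (Entrez 12296, chromosome 2, 14603861 to 14988811, plus strand). Over the 12 libraries at 6 h its lowest, median and highest levels were 10.1, 14.5 and 19.3 CPM, and over those at 24 h they were 6.68, 12.3 and 16.3 CPM. It fell by 0.38 on the log2 scale between 6 and 24 h (SE 0.11, 95% CI -0.61 to -0.16, adjusted p = 0.00496), averaged over the treatments. The estimate was -0.07 in CTRL (adjusted p = 0.849), -0.18 in PIO (0.559) and -0.41 in GM (0.183), none of which passed. In PIO + GM, the values were 14.3, 19.3 and 13.0 CPM at 6 h and 6.68, 10.0 and 8.75 CPM at 24 h, without overlap (log2 fold change -0.88, SE 0.22, adjusted p = 0.00514). In that treatment 20.7% of all tested genes were lower at 24 h without overlap. Removing a smooth trend of each library's values on transcript GC content brought the Cacnb2 average to -0.23 with an adjusted p of 0.0609, in a range of 0.000738 to 0.0609 over all alternatives. Cacnb2 transcripts had the lowest GC content of the 9 genes, 39%.

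The other 6 genes did not pass the threshold between 6 and 24 h. Their log2 fold changes were -0.09 for Otof (adjusted p = 0.677), -0.15 for Cacna1d (0.293), -0.28 for Cabp2 (0.403), -0.02 for Ctbp2 (0.828), -0.20 for Bsn (0.478) and -0.15 for Pclo (0.373). For Otof, whose levels ran from 63.5 to 205 CPM at 6 h and from 54.9 to 171 CPM at 24 h, the 95% CI was -0.46 to 0.28. Spiral ganglion neuron markers moved with the genes that fell: 11 of 16 were lower at 24 h and 0 higher, with a median log2 fold change of -0.96, and the sum of the list was 783 to 1606 CPM in the libraries at 6 h and 685 to 1072 CPM at 24 h. Of the HC markers, 7 of 22 were higher and 3 lower, with a median of 0.13. Of all genes tested, 31.9% were higher and 30.7% lower. The part of either cell type in the falls of Slc17a8, Rims2 and Cacnb2 was not tested.

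**Figure D2:**
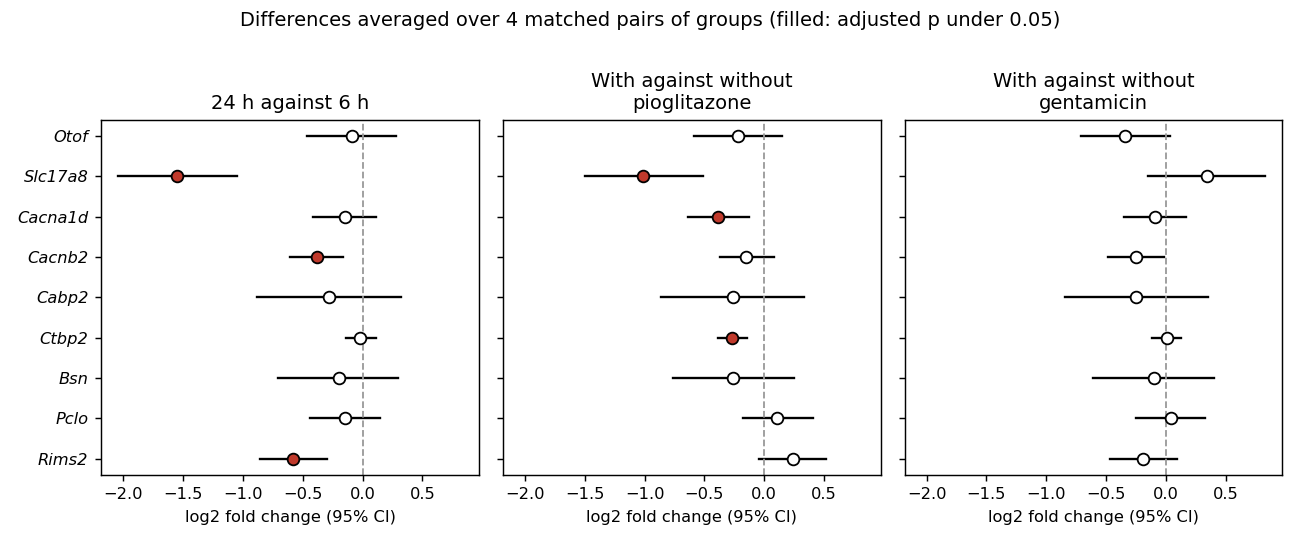
Log2 fold change of each gene (points) with its 95% CI (lines) for 24 h against 6 h, for groups with against groups without pioglitazone, and for groups with against groups without gentamicin, each averaged over 4 matched pairs of groups from the edgeR fit. Filled points passed the adjusted threshold of 0.05, which were Slc17a8, Cacnb2 and Rims2 for time, Slc17a8, Cacna1d and Ctbp2 for pioglitazone and none for gentamicin.

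Pioglitazone was compared by averaging its difference over the 4 pairs of groups that differ by it alone (PIO against CTRL and PIO + GM against GM, at 6 and 24 h). Slc17a8, Ctbp2 and Cacna1d were lower with it, 3 of the 9 genes, where 20.5% of all tested genes passed in either direction and 10.2% were lower. Slc17a8 encodes the vesicle glutamate transporter and Cacna1d the pore of the calcium channel, while Ctbp2 encodes the ribbon protein and a corepressor alike. The median log2 fold change of the 9 genes was -0.26 against -0.02 over all tested genes, with 7 of 9 below 0. Slc17a8 was 2.01-fold lower, at -1.01 ± 0.24 on the log2 scale (SE, 95% CI -1.50 to -0.51, adjusted p = 0.00627). Its lowest, median and highest levels were 8.29, 17.4 and 57.6 CPM in the 12 libraries with pioglitazone and 18.6, 39.4 and 116 CPM in the 12 without. The 2 sets overlapped, and the 4 pairs of groups all had lower means with pioglitazone. In PIO against CTRL the log2 fold change was -1.06 at 6 h (SE 0.47, unadjusted p = 0.0351 and adjusted p = 0.29 by edgeR) and -1.15 at 24 h (SE 0.48, unadjusted p = 0.0267, adjusted p = 0.413), where no library overlapped. At 24 h 10.6% of all tested genes were lower in PIO without overlap. Leaving out each library in turn gave -1.54 (without PIO library 2) to -0.69 (without PIO library 3) at 6 h. In PIO + GM against GM the value was -0.94 at 6 h and -0.88 at 24 h. The pioglitazone difference at 24 h minus that at 6 h was -0.10 without gentamicin (95% CI -1.47 to 1.28) and 0.06 with it (95% CI -1.32 to 1.44), so these data do not resolve a change with time.

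Ctbp2 encodes both CtBP2 and RIBEYE, and a count over the whole gene does not separate them (Entrez 13017, chromosome 7, 132986998 to 133124009, minus strand). At 6 h the 3 libraries gave 68.3, 67.5 and 71.8 CPM in CTRL, 71.3, 68.3 and 75.2 CPM in GM, 53.4, 45.1 and 64.3 CPM in PIO and 59.3, 51.1 and 45.3 CPM in PIO + GM. At 24 h they gave 61.2, 64.4 and 62.9 CPM in CTRL, 63.5, 63.3 and 63.7 CPM in GM, 62.5, 59.4 and 50.1 CPM in PIO and 58.5, 60.4 and 56.7 CPM in PIO + GM. The libraries without pioglitazone agreed closely within each group and those with it lay lower, without overlap except in PIO against CTRL at 24 h. Of all tested genes, 6.73% were lower without overlap in PIO against CTRL at 6 h. In PIO + GM against GM it was 11.4% of them at 6 h and 8.57% at 24 h. Averaged over the 4 pairs, Ctbp2 was 16.8% lower with pioglitazone, at -0.27 ± 0.06 on the log2 scale (SE, 95% CI -0.39 to -0.14, adjusted p = 0.00472). With the GC trend removed the difference was -0.14 and still passed the threshold, in a range of adjusted p of 0.00016 to 0.0203 over all alternatives. At 6 h, PIO + GM was lower than GM by 0.46 on the log2 scale (SE 0.12, unadjusted p = 0.000917, adjusted p = 0.0567) and lower than CTRL by 0.41 (unadjusted p = 0.00244, adjusted p = 0.0638), comparisons that share the PIO + GM libraries. Without PIO + GM library 1 at 6 h both passed, at -0.58 (adjusted p = 0.00728, range 0.00728 to 0.335) and -0.52 (adjusted p = 0.0113, range 0.0113 to 0.437), and with the GC trend removed they were -0.16 and -0.13. At 24 h the PIO + GM against GM difference was -0.12, and its change from 6 h was 0.35 (95% CI -0.00 to 0.70, adjusted p = 0.843).

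Cacna1d encodes the pore of Cav1.3, the channel that carries most of the presynaptic calcium current of inner HCs (Entrez 12289, chromosome 14, 30039941 to 30491156, minus strand). Its lowest, median and highest levels were 46.3, 67.7 and 86.9 CPM with pioglitazone and 57.3, 87.7 and 131 CPM without it. The difference was -0.39 ± 0.12 on the log2 scale (SE, 95% CI -0.64 to -0.13, adjusted p = 0.0341), or 1.31-fold lower, and the sets overlapped. The call depended on single libraries: it was lost without CTRL library 1 or 3 at 6 h (adjusted p = 0.0618 and 0.0581), GM library 1 at 6 h (0.0662), PIO + GM library 3 at 6 h (0.0516), CTRL library 1 or 3 at 24 h (0.0585 and 0.0547), GM library 1 or 3 at 24 h (0.0509 and 0.0544), PIO library 2 at 24 h (0.0558) or PIO + GM library 2 at 24 h (0.0598), in a range of 0.0116 to 0.0662 over all alternatives. The other 6 genes did not pass, at -0.22 for Otof (adjusted p = 0.404), -0.15 for Cacnb2 (0.36), -0.26 for Cabp2 (0.541), -0.26 for Bsn (0.471), 0.11 for Pclo (0.594) and 0.24 for Rims2 (0.217). Of the HC markers, 4 of 22 were lower with pioglitazone and 0 higher (median -0.24), where 10.2% of all genes were lower and 10.3% higher. Among the 4 were the unconventional myosin gene Myo7a at -0.51 (adjusted p = 0.0061) and Pou4f3, a transcription factor needed for HC survival, at -0.78 (0.00796). Spiral ganglion neuron markers were below 0 in 16 of 16 cases (median -0.37) with 1 called lower, and Schwann cell and satellite glia markers in 7 of 8 (median -0.36) with 1 called lower, beside the same 10.2% of all genes. Mesenchyme markers were below 0 in 5 of 7 (median -0.33) with 2 called lower. Supporting cell markers were so in 13 of 14 (-0.16) with 1 called lower, and macrophage markers in 10 of 11 (-0.16) with 0 called. Over all libraries, both times included, Slc17a8 had an r of 0.72 with the neuron markers and 0.28 with the HC markers. After the mean of each group was subtracted, r was 0.46 and 0.25. The part of any of these cell types in the 3 calls was not tested.

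Gentamicin was compared in the same way, since the study asked about its toxicity to HCs. Averaged over the 4 pairs of groups, 0 of the 9 genes passed the threshold by edgeR and 0 by DESeq2, another test for counts, where 0.276% of all tested genes passed by edgeR and 0.68% by DESeq2. At an unadjusted p under 0.05, 1 gene was counted, Cacnb2, at -0.25 ± 0.11 on the log2 scale (SE, unadjusted p = 0.0335, adjusted p = 1), against 3.66% of all genes. Otof was at -0.34 (SE 0.18, unadjusted p = 0.0717) and Slc17a8, in the opposite direction, at 0.34 (unadjusted p = 0.164). The remaining 6 lay between -0.25 for Cabp2 and 0.04 for Pclo.

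At 24 h of gentamicin, 7 of the 9 genes were below CTRL in their estimate, with a median log2 fold change of -0.35 against -0.00 over all genes. By edgeR 0 of the 9 passed, as did 0 by DESeq2, and 0.0123% of all genes passed by edgeR and 0.0919% by DESeq2. At an unadjusted p under 0.05 there were 2 of the 9 (Otof and Cacnb2), against 1.67% of all genes. Otof (Entrez 83762, chromosome 5, 30367066 to 30462730, minus strand) read 171, 132 and 156 CPM in CTRL and 92.5, 74.5 and 98.5 CPM in GM, so that every GM library was below every CTRL library. Its log2 fold change was -0.79 ± 0.36 (SE, 95% CI -1.54 to -0.04, unadjusted p = 0.0398, adjusted p = 1), or 1.73-fold lower. Cacnb2 read 13.3, 16.3 and 14.7 CPM in CTRL and 11.3, 12.4 and 8.48 CPM in GM (-0.46 ± 0.22, unadjusted p = 0.0483). Rims2 (-0.55 ± 0.27, unadjusted p = 0.0546) and Pclo (-0.35) did not overlap either, which made 4 of the 9 genes lower without overlap, where 3.06% of all tested genes were so. Pclo encodes piccolo, a scaffold whose short form sits at ribbons (Entrez 26875, chromosome 5, 14514906 to 14863465, plus strand), and read 43.4, 48.8 and 47.2 CPM in CTRL and 39.6, 39.2 and 30.4 CPM in GM. The estimates were -0.34 for Cacna1d, -0.56 for Cabp2 and -0.30 for Bsn, whose libraries overlapped, and 0.16 for Slc17a8 and 0.01 for Ctbp2. HC markers were below CTRL in 18 of 22 cases with a median of -0.49, and their sum was 758 to 1012 CPM in CTRL and 570 to 732 CPM in GM, without overlap. Supporting cell markers were below CTRL in 12 of 14 cases (median -0.23) and neuron markers in 13 of 16 (-0.14). Other lists lay mostly above CTRL, with 1 of 8 Schwann cell and satellite glia markers (0.26), 3 of 11 macrophage markers (0.20) and 1 of 7 mesenchyme markers (0.11) below it. The part of any of these cell types in the members' differences was not tested.

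At 6 h of gentamicin the picture was different in its estimates. The Otof libraries read 125, 63.5 and 205 CPM in CTRL and 151, 128 and 78.7 CPM in GM, which overlapped fully (-0.14, 95% CI -0.88 to 0.60). Of the 9 genes, 7 had estimates above 0, all 9 lay between -0.14 and 0.32, 0 passed by edgeR or by DESeq2 and 0 had an unadjusted p under 0.05, where 0% of all genes passed by either tool and 1.49% had such a p. The gentamicin difference at 24 h minus that at 6 h was below 0 for all 9 genes, with a median of -0.51 against -0.01 over all genes, and was -0.65 for Otof (95% CI -1.70 to 0.40, unadjusted p = 0.212). None of the 9 passed in this test by edgeR or DESeq2, with 0 at an unadjusted p under 0.05, and 0% of all genes passed by edgeR, with 0.766% at such a p.

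With both drugs for 24 h, all 9 genes had estimates below CTRL and the median log2 fold change was -0.71 against -0.00 over all genes. By edgeR 0 of the 9 passed the adjusted threshold, where 0.478% of all genes did, and DESeq2 called 1, Cacnb2, and 1.61% of all genes. At an unadjusted p under 0.05 there were 4 of the 9, against 9.05% of all genes. Cacnb2 read 6.68, 10.0 and 8.75 CPM against 13.3, 16.3 and 14.7 CPM in CTRL (-0.80 ± 0.22, unadjusted p = 0.00172, adjusted p = 0.126, range 0.0147 to 0.426 over the alternatives). Cacna1d read 57.0, 46.3 and 64.5 CPM against 104, 76.8 and 101 CPM (-0.75 ± 0.25, unadjusted p = 0.00703, adjusted p = 0.237). Neither gene's libraries overlapped between the groups. Otof read 95.4, 54.9 and 121 CPM, below all CTRL libraries (-0.76, unadjusted p = 0.0478, adjusted p = 0.54). Without PIO + GM library 2 the Otof value was -0.50 (adjusted p = 0.911), and leaving out each library in turn gave -1.02 to -0.50. Cabp2 encodes a calcium-binding protein that keeps Cav1.3 from inactivating (Entrez 29866, chromosome 19, 4081469 to 4087340, plus strand), and read 1.99, 1.06 and 1.55 CPM against 3.87, 1.65 and 6.11 CPM, with overlap (-1.31 ± 0.59, unadjusted p = 0.0366, adjusted p = 0.498). Without CTRL library 3 the Cabp2 value was -0.82 (adjusted p = 0.937), and leaving out each library in turn gave -1.69 to -0.82. In all, 6 of the 9 genes were lower without overlap (Otof, Slc17a8, Cacna1d, Cacnb2, Ctbp2 and Rims2), where 10.2% of all tested genes were so. These differences share the CTRL libraries with those of gentamicin alone. Against GM at 24 h, PIO + GM differed by -0.88 for Slc17a8 to 0.21 for Pclo, with 0.03 for Otof (74.5 to 98.5 CPM in GM and 54.9 to 121 CPM in PIO + GM). By edgeR and DESeq2 0 of the 9 passed, 0 had an unadjusted p under 0.05 against 7.47% of all genes, and 0.11% of all genes passed by edgeR and 0.625% by DESeq2. The sum of the HC markers was 410 to 635 CPM with both drugs at 24 h, below the CTRL libraries and overlapping GM. Against CTRL the estimates were also below 0 for 21 of 22 HC markers (median -0.71), 15 of 16 neuron markers (-0.47), 13 of 14 supporting cell markers (-0.27) and 5 of 7 mesenchyme markers (-0.65). They were so for only 3 of 8 Schwann cell and satellite glia markers (0.08) and 4 of 11 macrophage markers (0.18). The part of any of these cell types in the members' differences was not tested.

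**Figure D3:**
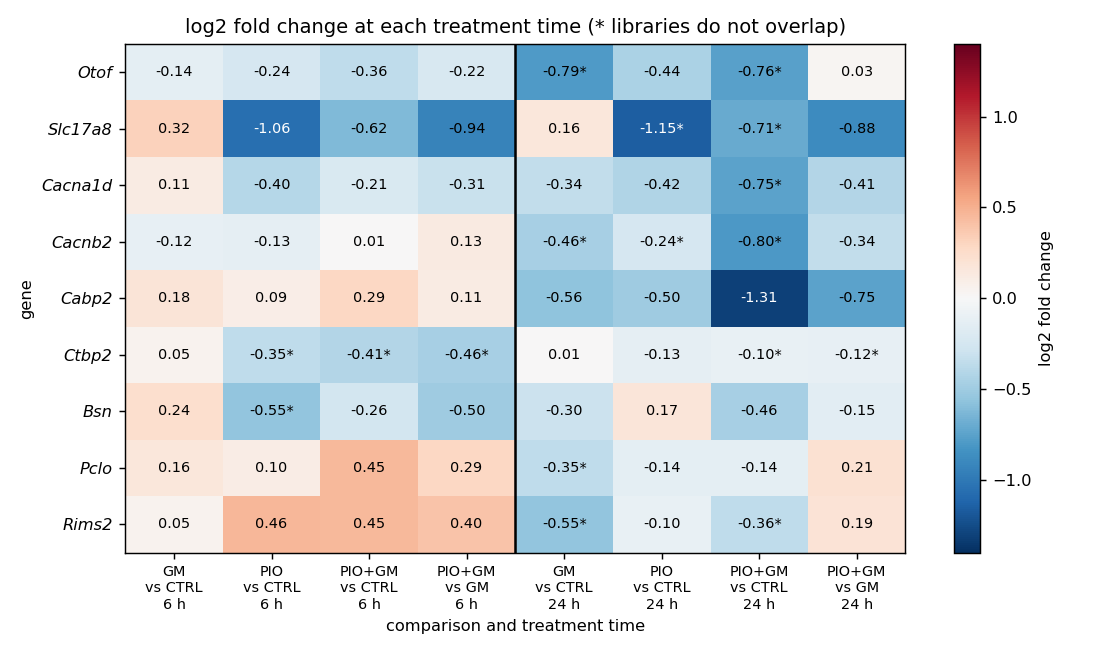
Log2 fold change of the 9 genes (rows) in the 8 drug comparisons (columns, 6 h left and 24 h right of the line), from the edgeR fit, with an asterisk where the libraries of the groups did not overlap. The 24 h columns against CTRL hold mostly negative values, down to -1.31 for Cabp2 with both drugs (-0.82 without CTRL library 3), and none of the values passed the adjusted threshold.

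The remaining drug comparisons gave 0 calls among the 9 genes in the edgeR fit of all 24 libraries, which did not use the replicate numbers. Calls in a fit that used them are given at the end. In PIO against CTRL at 6 h, 0.337% of all genes passed, 2 of the 9 and 15.2% of all genes had an unadjusted p under 0.05, and DESeq2 called 0 of the 9 and 2.09% of all. In PIO against CTRL at 24 h, 0.153% of all genes passed, 1 of the 9 and 9.93% of all had such a p, and DESeq2 called 0 of the 9 and 0.993% of all. The 9 genes thus had such a p about as often as genes at large. In PIO + GM against GM at 6 h, 1.32% of all genes passed, 1 of the 9 and 25% of all had such a p, and DESeq2 called 1 (Ctbp2) and 7.45% of all. In PIO + GM against CTRL at 6 h, 2.64% of all genes passed, 1 of the 9 and 23.6% of all had such a p, and DESeq2 called 1 (Ctbp2) and 7.27% of all. Rims2 was above its comparison group in 3 of them at 6 h, at 0.46 in PIO against CTRL, 0.45 in PIO + GM against CTRL and 0.40 in PIO + GM against GM, and overlapped in all 3. The tests of a combined effect beyond the sum of the drugs called 0 of the 9 genes and 0% of all genes at 6 h and at 24 h.

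Bsn encodes bassoon, which anchors the ribbon to the active zone (Entrez 12217, chromosome 9, 108096022 to 108190419, minus strand). Its CPM ran from 3.74 to 19.0 and spread widely within groups, as at 24 h, where CTRL read 7.47, 18.2 and 5.59 CPM, GM 8.93, 12.9 and 3.74 CPM and PIO 7.52, 19.0 and 8.94 CPM. Library 2 was the highest in each of these groups. At 6 h it read 16.0, 10.7 and 9.50 CPM in CTRL and 7.81, 9.21 and 7.74 CPM in PIO, without overlap (-0.55, 95% CI -1.57 to 0.47, unadjusted p = 0.273). In that comparison 6.73% of all tested genes were lower without overlap. Cabp2 ranged from 0.743 to 6.11 CPM and was lowest in library 2 of CTRL, GM, PIO and PIO + GM at 24 h.

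How the genes moved together from library to library was described by Pearson's r of log2 CPM over the 24 libraries after the mean of each group was subtracted. Libraries share 1 total to which all genes are scaled, and r is given without a test. Libraries with the same replicate number deviated together, with a mean r of 0.11 at 6 h and 0.38 at 24 h. The 24 libraries may thus not be independent, and r may rest on a few such sets. The 36 pairs ran from -0.73 to 0.89 with a median of 0.235. Otof, Cacna1d, Cabp2, Rims2 and Pclo had an r of 0.30 to 0.89 in any pair, a grouping made after the values were seen, at 0.89 for Otof with Cacna1d, 0.77 for Otof with Rims2, 0.71 for Cacna1d with Cabp2 and 0.84 for Pclo with Rims2. Each of the 5 also followed the mean of the HC marker list, at 0.93 for Otof, 0.93 for Cacna1d, 0.87 for Rims2, 0.73 for Cabp2 and 0.68 for Pclo. Bsn followed the spiral ganglion neuron markers instead, at 0.86, and the HC markers at -0.37, and its r with Cabp2 was -0.73. Slc17a8 stood at 0.25 with the HC markers and 0.46 with the neuron markers, and Cacnb2 at 0.14 and 0.57. Ctbp2 stood at -0.40 and -0.13, and was lower where Pclo (-0.66) and Rims2 (-0.63) were higher.

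**Figure D4:**
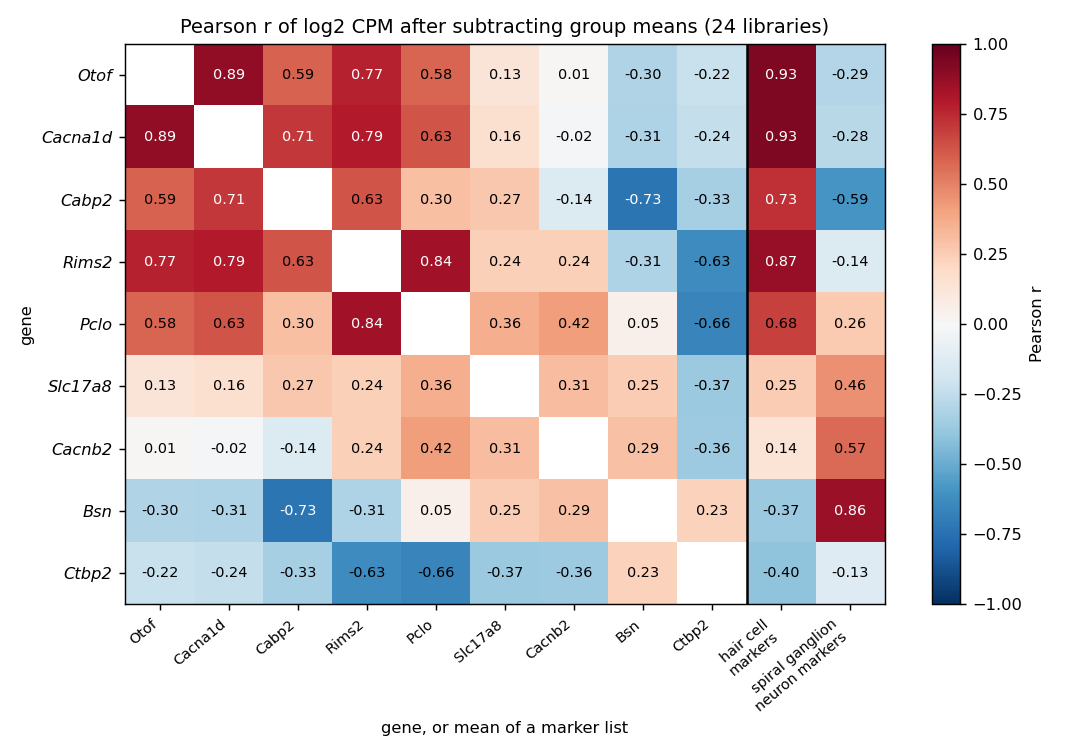
Pearson r of log2 CPM between the 9 genes, and between each gene and the mean of the HC and spiral ganglion neuron marker lists (right of the line), over 24 libraries after subtracting group means. Otof, Cacna1d, Cabp2, Rims2 and Pclo share positive values and follow the HC markers, while Bsn follows the neuron markers at 0.86.

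Genes whose levels were most like those of a member were ranked by r over the 24 libraries, group means kept. For Otof they were Fcrlb (0.93), Myo15 (0.89) and Strc (0.89), the last of which encodes stereocilin of the outer HC bundle. For Cacna1d they included Sall1 (0.91) and Gipc3 (0.89), and for Cabp2 they were Ppp4r4 (0.93), 1700001K23Rik (0.88) and Tmc1 (0.88), a gene of the mechanotransduction channel. Slc17a8 was most like Megf10 (0.95), Gldn (0.95) and Plekha1 (0.94), none of which is on the HC marker list. The leading genes were Marchf4 (0.82) for Cacnb2, Sphk1 (0.93) for Ctbp2, Rab6b (0.91) for Bsn, Dnm3 (0.82) for Pclo and Hacd3 (0.92) for Rims2.

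Slc17a8 and Otof, whose proteins fill and fuse the same vesicles in inner HCs, had an r of 0.13 within groups and 0.18 over all libraries. Their ratio in each library was looked at after the values had been seen, and is described without a test. The mean log2 ratio of Slc17a8 to Otof was -1.25 over the 12 libraries at 6 h and -2.66 over those at 24 h, a difference of -1.41. It was -2.38 with and -1.53 without pioglitazone, and -1.65 with and -2.26 without gentamicin. Each of these 3 differences had the same direction in 4 of 4 pairs of groups. The 3 CTRL libraries at 24 h lay close together, at -2.83, -2.74 and -2.56, and those of CTRL at 6 h lay far apart, at -2.31, -1.01 and 0.47.

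**Figure D5:**
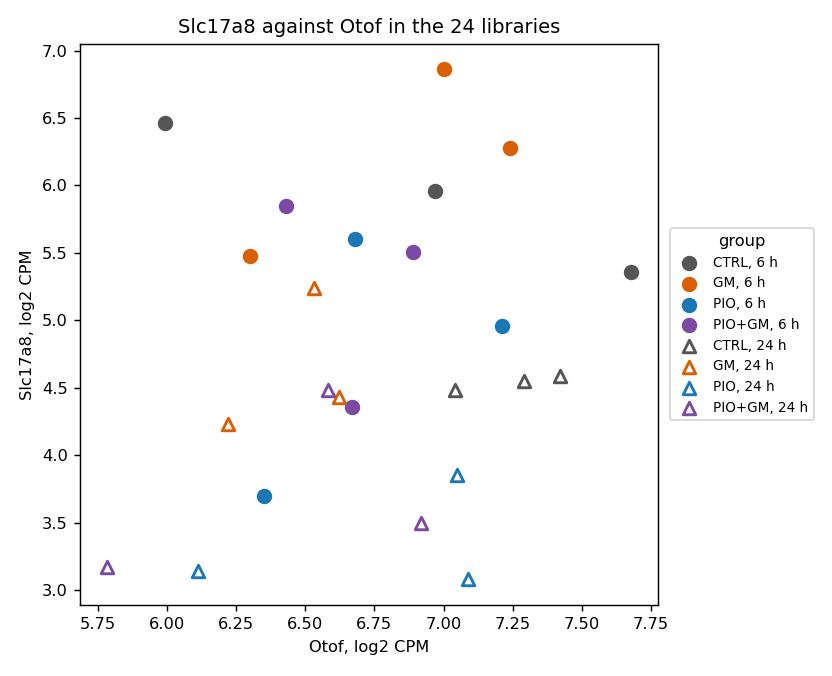
Log2 CPM of Slc17a8 (vertical axis) against log2 CPM of Otof (horizontal axis) in the 24 libraries, with filled circles for 6 h, open triangles for 24 h and a colour for each treatment. The libraries at 24 h lie mostly below those at 6 h on the Slc17a8 axis while on the Otof axis they overlap, from 63.5 to 205 CPM at 6 h and from 54.9 to 171 CPM at 24 h.

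Genes of neighbouring function were followed as lists. Of 26 other ribbon synapse partners tested, 7 were higher and 12 lower at 24 h than at 6 h (median log2 fold change -0.36), beside 31.9% and 30.7% of all genes. Among them were Nsf, the ATPase that takes apart used fusion complexes, at -0.59 (adjusted p = 1.82e-06), the priming factor gene Unc13b at 0.45 (1.37e-05) and the large-conductance potassium channel gene Kcnma1 at -0.93 (2.04e-05). With pioglitazone 1 was higher and 4 lower (median -0.16), where 10.3% of all genes were higher and 10.2% lower. Those lower included Ppfia3, a liprin of the active zone, at -0.74 (adjusted p = 0.00259), Kcnma1 at -0.55 (0.0132) and Dnm1, a dynamin of vesicle retrieval, at -0.52 (0.0155). Of 23 conventional presynaptic genes, 3 were higher and 13 lower at 24 h (median -0.46), with the neuronal glutamate transporter gene Slc17a7 at -2.40 (adjusted p = 0.00012), Syt2 at -1.60 (0.000144) and Syt1 at 1.03 (1.27e-05). On the postsynaptic side, 4 of 12 glutamate receptor and scaffold genes were lower with pioglitazone and 0 higher (median -0.43), beside the same 10.2% and 10.3% of all genes. Among them were the AMPA receptor genes Gria3 at -0.67 (adjusted p = 9.92e-05) and Gria1 at -0.82 (0.00184) and the scaffold gene Dlg4 at -0.54 (0.00213).

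The efferent synapse, through which brainstem neurons inhibit HCs by way of the nicotinic receptor subunits Chrna9 and Chrna10, was followed with 4 tested genes. At 24 h against 6 h Chrna9 was lower at -1.10 (adjusted p = 0.00178), the ryanodine receptor gene Ryr1 was lower at -0.92 (0.00999) averaged over the treatments and Kcnn2, the calcium-activated potassium channel coupled to the receptor, was higher at 0.63 (0.00151). By treatment, the Ryr1 estimate was 0.72 in CTRL (adjusted p = 0.372), -1.34 in GM (0.103), -1.70 in PIO (0.0387) and -1.36 in PIO + GM (0.0768). With gentamicin all 4 were below 0 in their estimates at 24 h, with a median of -1.06, and 0 passed by edgeR, with 2 at an unadjusted p under 0.05, where 0.0123% of all genes passed and 1.67% had such a p. Chrna10 was at -1.25 (unadjusted p = 0.00514, adjusted p = 1) there and at -0.86 averaged over the 4 pairs of groups (unadjusted p = 0.000377, adjusted p = 0.0847).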

How the data were processed

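RNA was measured in 24 OC libraries, 3 in each of 8 groups of treatment and time. Per the study's methods, the authors sequenced TruSeq stranded total RNA as single 76-base reads, mapped them with STAR to mm10 and counted, with QuasR, reads starting in any RefSeq exon of a gene. The strand setting and the handling of reads with several matches are not given in the sources used here. The deposited values are counts of reads per Entrez gene, not normalized, and a gene length column, the 1 other column.

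Symbols came from the RefSeq table and matched 24374 of 24454 identifiers. Groups were taken from the labels. The counts were tested with edgeR (version 4.0.16, R 4.3.3) by the quasi-likelihood F-test, with TMM factors (0.961 to 1.04), filterByExpr, 1 mean for each of the 8 groups, no replicate block, and Benjamini-Hochberg adjustment over 16317 genes at a threshold of 0.05. Averages over 4 pairs of groups and interactions were contrasts of this fit. SE is the absolute log2 fold change divided by the square root of F. CPM used TMM library sizes, and log2 CPM a prior count of 2. The alternatives were no TMM factors, another filter or none, a replicate block, removal of the GC trend (loess span 0.3) with and without that block, the 12 libraries of a time point, DESeq2 (version 1.42.0) and leaving out each library. The scripts were tested on simulated data. Totals of 7211357 to 15548856 reads limit the precision of Cabp2 and Bsn, and 3 reads equal 0.193 to 0.416 CPM.

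The rule for naming allowed the 9 members in every comparison, of which the text gives those it discusses and the plot of drug comparisons all, up to 3 genes of each list with the lowest unadjusted p in a comparison, and the 3 genes most like a member, of which some are not reported here. The members and lists were chosen with earlier results of these data known. The authors' own comparisons were not used.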

Additional observations from a re-analysis of the deposited data

How the results depend on the processing

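Each of the 26 single-gene differences with an unadjusted p under 0.05 was run under the 13, 14 or 31 alternatives that applied to it, and none changed sign. Of the other 154 differences, 75 changed sign under at least 1 alternative. The number of the 9 genes called rose from 0 to 1 for PIO against CTRL at 6 h with a replicate block and with the GC trend removed in the same fit as the block, where Slc17a8 had an adjusted p of 0.0405 and 0.0192 (range 0.0192 to 0.569). Of all genes, 2.27% and 5.14% passed in these 2 fits, against 0.337% without such changes. For PIO + GM against GM at 6 h the number called rose from 0 to 2 with the block (Ctbp2 at 0.0228 and Slc17a8 at 0.0372), to 1 with the GC trend removed and the block, to 1 with at least 10 reads in every library and to 1 by DESeq2. Of all genes, 12.2% passed with the block, 4.47% with the GC trend removed and the block and 7.45% by DESeq2, against 1.32% without such changes. For PIO + GM against CTRL it rose from 0 to 1 at 6 h with the block (Ctbp2 at 0.037) and by DESeq2. Of all genes, 9.46% and 7.27% passed there, against 2.64% without such changes. At 24 h it rose from 0 to 1 with the block (Cacnb2 at 0.0399), with the GC trend removed and the block, with the 12 libraries of the time point and by DESeq2. In these fits 1.95%, 3.45%, 1.74% and 1.61% of all genes passed, against 0.478%. For 24 h against 6 h in CTRL it went from 1 to 2 with the GC trend removed, without and with the block, where 35.9% and 38.8% of all genes passed, against 28%. In GM it went from 1 to 2 with the GC trend removed, to 3 with it and the block and to 2 by DESeq2. There 32.1%, 35.4% and 28.2% of all genes passed, against 24.2%. Over the 4 treatments it went from 3 to 5 with the GC trend removed and the block, where 67.1% of all genes passed, against 62.6%. The cause of these changes was not tested. Leaving out 1 library gave 0 to 1 calls for PIO + GM against GM at 6 h and 0 to 1 against CTRL. It gave 0 to 1 for time in CTRL, 0 to 2 in GM, 0 to 2 in PIO, 1 to 2 in PIO + GM (3 with all libraries) and 2 to 3 for the pioglitazone average. Libraries with the same replicate number deviated together with a mean r of 0.11 at 6 h (9 of 18 pairs over 0.1) and 0.38 at 24 h (15 of 18), against -0.05 (13 of 36) and -0.18 (10 of 36) for different numbers. At each time 8 of 12 libraries correlated best with their own number, a hint from the data. Since neither the labels nor every pair show it, the pairing remains undecided, and no other difference with an unadjusted p under 0.05 changed its call under the block.

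The design has 3 libraries a group, and a difference in Cabp2, with 11 to 70 reads a library, had a standard error of 0.56 for GM against CTRL at 24 h. The libraries hold whole explants, so a level follows cell makeup and level per cell alike. Ctbp2 counts do not separate RIBEYE from CtBP2. Removing the GC trend took the Ctbp2 pioglitazone difference from -0.27 to -0.14.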

Other observations

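The marker lists of the other cells of the explant moved with time in different directions. At 24 h against 6 h, 8 of 14 supporting cell markers were higher and 0 lower (median log2 fold change 0.39), 7 of 11 macrophage markers were higher and 0 lower (0.56), and 4 of 8 Schwann cell and satellite glia markers were lower and 1 higher (-0.83), where 31.9% of all genes were higher and 30.7% lower. Among the neuron markers, Thy1 was at -2.05, Tubb3 at -1.42 and Gap43, a growth cone protein, at -0.95. With pioglitazone Gap43 was at -1.18 (adjusted p = 6.29e-06 by edgeR), the Schwann cell receptor gene Erbb3 at -0.55 and the collagen gene Col3a1 at -0.74, while the median over the 11 macrophage markers was -0.16. With gentamicin, averaged over the 4 pairs of groups, 1 of 14 supporting cell markers passed by edgeR, the Notch target Hes5, at -2.17 (adjusted p = 0.0293), where 0.276% of all genes did. Hes5 rested on few reads, 3 to 169 in a library with a median of 21.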
